A study of Mus musculus with 12 samples.

Results

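Transcript levels were described for the mouse zinc finger protein genes whose symbol is Zfp followed by digits alone. The symbol Zfp36, which names a protein of another finger type, was left out, and a gene was kept when its raw counts summed to at least 450 over the 9 libraries analysed here. Of 22935 rows in the deposited tables, 317 carried such a symbol and 257 reached the sum. A pair of these rows was named Zfp865 and held identical counts, so the members were 256 genes. The members were thus chosen by their total count, which is given as a description only. The members just inside it were Zfp608 with 458 counts, Zfp78 with 464 and Zfp939 with 480, and the genes just outside were Zfp273 with 426, Zfp619 with 425 and Zfp93 with 376. Every one of the 256 members passed the count filter of the tests, which 14146 genes passed in all.

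The libraries were made from BV2 cells, an immortalised line of mouse microglia, the phagocytes of the brain. In every library analysed here the cells had received oxyhaemoglobin (oxy-Hb) at 10 µM, the oxygen-carrying haemoglobin that leaks from red cells after a bleed. The groups were oxy-Hb with C3a, oxy-Hb with C3aRA and oxy-Hb without addition, with 3 libraries each. C3a is the peptide cut from complement component C3 that binds the receptor C3aR, and the labels give it at 20 ug/ul, a concentration so high for a peptide that the unit may be mistaken. C3aRA was used at 50 µM, and the labels do not spell the abbreviation out. The labels give no exposure time, do not say whether the replicates were separate cultures, and name 1 cell line, so the p-values measure the spread between these libraries, which may be technical. PBS samples (3) were not analysed here, so no value below shows what oxy-Hb did.

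Most proteins of this family carry tandem C2H2 fingers, short loops in which a pair of cysteines and a pair of histidines hold a zinc ion and a helix reads a few bases of DNA. In tetrapods many of them also carry a KRAB domain, which recruits KAP1 (Trim28) and, through it, the histone methyltransferase Setdb1, the HP1 proteins and DNA methylation to silence retroelements and imprinted genes. Members without KRAB have diverse roles, among them transcriptional activation, RNA binding, ribosome quality control and spindle assembly.

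Library totals ran from 12934794 to 20479002 counts, and the lowest count of any member in a library was 23. One library stood apart: C3a replicate 2 lay at 76.3 on the first principal component of all tested genes, and the other 8 lay between -23.8 and 10.8. Its ribosomal protein genes summed to 48451 CPM (counts scaled to library size), against 31083 to 35712 CPM in the others. The members summed to 6245 TMM-scaled CPM in C3a replicate 2 and to between 7432 and 7976 CPM elsewhere. This library held the lowest of the 9 values for 113 members (44.1%), and for 28.9% of all tested genes. Counts of called members are therefore given with and without it. The listed microglial genes summed to 1704 to 1983 CPM, led by Cd68 and Ptprc, while C1qa had 3 counts over the 9 libraries and Aif1, P2ry12 and Tmem119 stayed below 4 CPM. The listed oligodendrocyte genes summed to 8.12 to 12.04 CPM, and those of neurons, astrocytes, endothelium or fibroblasts and red cells to at most 1.65 CPM in any library.

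Translated coding sequences were available for 255 members, all but Zfp939. A stretch resembling KRAB was found in 138 of them and not in 117. The search matched a pattern of residues, so a missing match does not show that a protein lacks the domain. The members had a median of 11 fingers by the pattern C, 2 residues, C, 12 residues, H, 3 to 5 residues, H. At least 10 fingers were found in 141 members and none in 10, among them Zfp707, of which only 45 residues were translated. Zfp462 had the most, 33. KRAB-like members had a median of 12 fingers joined by 6 exact copies of the usual linker (threonine, glycine, glutamate, lysine, proline), the others 7 fingers and 0 such copies. Their transcripts also differed in composition: the median GC content was 41.1% in KRAB-like members, 48.8% in the others and 49.1% in all tested genes. Chromosome 7 held 66 members, chromosome 17 held 32 and chromosome 13 held 25, and 28 of those on chromosome 17 and 21 of those on chromosome 13 were KRAB-like.

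Sequence shared between neighbours limits how far reads can be assigned to single members. Of the 31-base words of each member's transcripts, at least 20% also occurred in another gene for 37 members, and at least 50% for 13. Zfp97 is the member called below for which this matters most, since 87.7% of its words were shared, 84.9% with Zfp960. The following coding stretches each show 1 finger and the linker after it, with the codons of the zinc-binding Cys and His in capitals, for the KRAB-like members Zfp944 and Zfp120, called in opposite directions between C3a and C3aRA, and for the near-identical pair. They come from the GENCODE M21 annotation of GRCm38.
Zfp944: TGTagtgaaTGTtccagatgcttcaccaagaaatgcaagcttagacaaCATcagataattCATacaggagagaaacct
Zfp120: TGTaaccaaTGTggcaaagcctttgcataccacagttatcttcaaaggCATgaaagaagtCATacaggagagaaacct
Zfp97: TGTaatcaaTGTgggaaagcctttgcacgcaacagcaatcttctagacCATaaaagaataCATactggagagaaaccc
Zfp960: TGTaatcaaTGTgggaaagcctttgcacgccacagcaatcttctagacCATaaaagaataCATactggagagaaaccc
Over these 78 bases Zfp97 and Zfp960 differed at 1 base, Zfp97 and Zfp120 at 16, and Zfp944 and Zfp120 at 28. The codons that hold the zinc were the same in all 4, and the differences lay outside the capitals. Between Zfp97 and Zfp120 some lay in the linker or left the residue unchanged. The counts of differing bases therefore do not measure a difference in the DNA that is read.

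Promoter windows from RefSeq on GRCm38.p6, 250 bases before to 50 after a start, were matched by symbol for 215 members. The letters GGGCGG, the core of the GC box, were searched on both strands and occurred in 47.0% of the 266 windows of members and in 35.7% of the 32851 windows of all genes. ACTACAA, part of the site bound by the member Zfp143, occurred in 6.02% and 3.24%. The median window held 16 CG dinucleotides in members and 7 in all genes. The windows of all genes were not chosen by count and include those of the members, so the sets may differ in expression as well. Whether the count sum accounts for these differences was not tested. The windows of 2 members lower with C3a (Zfp598 and Zfp692) and of the KRAB-like pair Zfp944 and Zfp120 are shown 5′ to 3′ on the gene's strand, with GGGCGG or ACTACAA in capitals.
Zfp598 (chr17:24669437-24669736, plus strand): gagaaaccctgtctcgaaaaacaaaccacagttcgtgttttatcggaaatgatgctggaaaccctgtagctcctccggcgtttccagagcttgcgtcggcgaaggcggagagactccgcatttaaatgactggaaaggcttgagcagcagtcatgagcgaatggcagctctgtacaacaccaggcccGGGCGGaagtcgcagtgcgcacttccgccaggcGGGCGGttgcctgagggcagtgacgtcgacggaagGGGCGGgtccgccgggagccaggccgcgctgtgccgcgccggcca
Zfp692 (chr11:58306819-58307118, plus strand): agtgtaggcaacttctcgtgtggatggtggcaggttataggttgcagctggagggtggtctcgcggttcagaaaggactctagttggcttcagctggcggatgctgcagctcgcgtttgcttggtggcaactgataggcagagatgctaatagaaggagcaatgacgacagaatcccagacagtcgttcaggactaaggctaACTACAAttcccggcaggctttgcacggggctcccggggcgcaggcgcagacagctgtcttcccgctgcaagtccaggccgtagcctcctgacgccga
Zfp944 (chr17:22361351-22361650, minus strand): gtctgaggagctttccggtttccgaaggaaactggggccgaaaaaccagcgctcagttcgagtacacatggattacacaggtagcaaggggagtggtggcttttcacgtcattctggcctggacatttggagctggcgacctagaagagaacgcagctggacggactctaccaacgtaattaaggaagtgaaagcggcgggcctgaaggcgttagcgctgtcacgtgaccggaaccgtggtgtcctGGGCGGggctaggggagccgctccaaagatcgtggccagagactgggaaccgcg
Zfp120 (chr2:150136629-150136928, minus strand): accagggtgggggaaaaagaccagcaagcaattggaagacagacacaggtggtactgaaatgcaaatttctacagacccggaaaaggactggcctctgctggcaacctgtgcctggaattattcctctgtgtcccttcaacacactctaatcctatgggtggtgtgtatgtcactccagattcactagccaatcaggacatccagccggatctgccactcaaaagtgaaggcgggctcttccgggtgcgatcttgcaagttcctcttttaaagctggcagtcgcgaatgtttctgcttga
The Zfp598 window held GGGCGG in 3 places, the Zfp944 window in 1, and the Zfp692 window held ACTACAA once. Neither motif was in the Zfp120 window, which says only that these letters are not in it.

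Most members were expressed at low to moderate levels. Mean levels over the 9 libraries had a median of 15.3 CPM and ran from 3.06 CPM for Zfp608 to 546 CPM for Zfp106, with 80 members under 10 CPM, 163 from 10 to 100 and 13 at 100 or more. By level, the highest after Zfp106, an RNA-binding protein, were Zfp638 with 248 CPM, whose human counterpart silences unintegrated retroviral DNA, and Zfp91 with 222 CPM, a ubiquitin ligase in human cells. Zfp207, which loads Bub3 onto kinetochores, followed with 217 CPM, and Zfp445, which helps to keep imprints methylated, with 201 CPM. Zfp148, Zfp330 and Zfp277 followed with 131, 129 and 125 CPM. Per kilobase of transcript the order changed: Zfp207 led with 66.1 CPM per kb, ahead of Zfp106 with 60.1, Zfp91 with 40.1, Zfp330 with 36.1 and Zfp131 with 33.1, and the lowest were Zfp608 with 0.503, Zfp319, Zfp78, Zfp316 and Zfp563. Zfp445 was the KRAB-like member with the highest level. The role list fixed for this work also named genes that were no members: Zfp57 summed to 4 counts, Zfp593 to 14 and Zfp532 to 279.

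Few members were lower with C3a by the test, and their number changed with the libraries and settings used. Against oxy-Hb, 8 members fell and 0 rose by the quasi-likelihood F test of edgeR, with Benjamini-Hochberg adjusted p-values below 0.05 over all 14146 genes. They were Zfp865, Zfp598, Zfp516, Zfp692, Zfp408, Zfp346, Zfp369 and Zfp217, of which Zfp369 was KRAB-like. The 8 are 3.12% of the members, and 3.04% of all tested genes fell, while 0.905% rose. The share of members that fell was thus near that of all genes. The median log2 fold change over members was -0.11, with 172 of 256 below 0, and that over all genes was 0.002.

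Zfp598, a ubiquitin ligase that marks collided ribosomes (Ensembl ENSMUSG00000041130, chr17:24669752-24682015 on GRCm38), had 32.4, 24.7 and 27.5 CPM with C3a, 36.7, 37.7 and 44.6 CPM with C3aRA, and 48.5, 46.5 and 40.1 CPM with oxy-Hb alone. Its log2 fold change for C3a over oxy-Hb was -0.68 ± 0.14 (SE, edgeR, adjusted p = 0.0167). All C3a libraries lay below all others. Zfp346, which binds double-stranded RNA, had 50.4, 39.4 and 51.6 CPM with C3a, 83.4, 79.4 and 67.9 CPM with C3aRA, and 76.9, 67.5 and 64.9 CPM with oxy-Hb alone. Here too the C3a libraries were the 3 lowest, with a log2 fold change of -0.57 ± 0.13 against oxy-Hb (edgeR, adjusted p = 0.0295).

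Among the transcription regulators, Zfp516, an activator of Ucp1 in brown fat, had 25.1, 19.0 and 20.4 CPM with C3a, 36.3, 36.9 and 36.0 CPM with C3aRA, and 38.5, 33.9 and 29.9 CPM with oxy-Hb alone. The C3a libraries did not overlap with either group, and the log2 fold change against oxy-Hb was -0.67 ± 0.14 (edgeR, adjusted p = 0.0195). Zfp217, which in human cells works with CoREST and is amplified in breast cancer, had 35.4, 27.8 and 35.1 CPM with C3a, 46.7, 41.5 and 46.0 CPM with C3aRA, and 47.2, 47.5 and 44.9 CPM with oxy-Hb alone. Its groups of C3a and oxy-Hb did not overlap, and its log2 fold change was -0.51 ± 0.12 (edgeR, adjusted p = 0.0361). Zfp408 averaged 13.9 ± 1.18 CPM with C3a, 20.7 ± 1.503 CPM with C3aRA and 20.9 ± 2.13 CPM with oxy-Hb alone (SD, n = 3 each), and its log2 fold change was -0.60 ± 0.14 (edgeR, adjusted p = 0.0362).

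Zfp865 had the largest fold change of the 8 and was low with C3aRA too. It had 13.4, 8.95 and 15.2 CPM with C3a, 14.1, 13.4 and 13.4 CPM with C3aRA, and 21.9, 23.8 and 23.4 CPM with oxy-Hb alone. The log2 fold change was -0.88 ± 0.18 for C3a (edgeR, adjusted p = 0.0167) and -0.76 ± 0.18 for C3aRA (edgeR, adjusted p = 0.467), each against the same oxy-Hb libraries. Both groups lay below oxy-Hb without overlap. The C3a difference passed the test with all libraries, and the C3aRA difference passed it without C3a replicate 2, at -0.76 ± 0.14 (edgeR, adjusted p = 0.00294). The authors' deposited table for C3aRA lists Zfp865 with a log2 fold change of -0.75 and an adjusted p of 9.97e-05. The counts of Zfp865 equal those listed under a second identifier, which GENCODE names 4632433K11Rik and whose transcript words all occur in Zfp865. Of the words of Zfp865, 14.7% occur in 4632433K11Rik, so the shared words cover only a part of Zfp865. Why the counts are equal was not tested. Zfp692 had 27.3, 29.3 and 30.6 CPM with C3a, 39.3, 31.9 and 37.1 CPM with C3aRA, and 49.7, 42.7 and 40.7 CPM with oxy-Hb alone. Its C3a libraries were below all others, and its log2 fold change was -0.61 ± 0.13 (edgeR, adjusted p = 0.0188). The KRAB-like Zfp369 had 48.2, 38.2 and 53.4 CPM with C3a, 59.4, 61.5 and 55.2 CPM with C3aRA, and 69.2, 65.9 and 67.4 CPM with oxy-Hb alone, 3 ranges that did not overlap. Its log2 fold change for C3a over oxy-Hb was -0.54 ± 0.13 (edgeR, adjusted p = 0.0308).

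**Figure D1:**
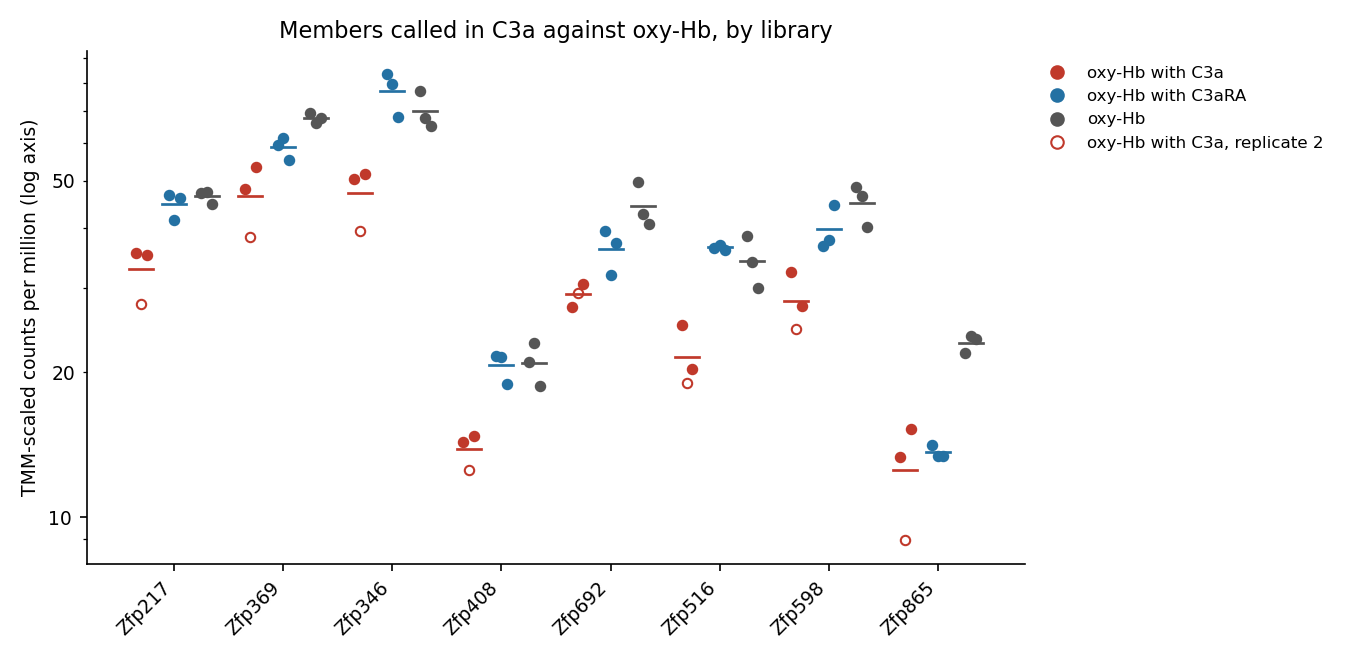
Level in each library of the 8 members that fell with C3a against oxy-Hb, in TMM-scaled CPM on a log axis; points are libraries, bars are group means of 3, and the open point is C3a replicate 2. The C3a points lie below the oxy-Hb points for each of the 8 genes, and for Zfp865 the C3aRA points are low too.

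The 8 calls were all kept when C3a replicate 2 was left out, and the count grew to 17 members that fell and 3 that rose, beside 5.55% and 4% of all genes. The members that rose were Zfp24, a factor needed for myelination in oligodendrocytes, and the KRAB-like Zfp944 and Zfp953. Zfp24 had 38.6, 37.4 and 43.3 CPM with C3a, 29.7, 30.1 and 32.9 CPM with C3aRA, and 32.5, 29.4 and 31.6 CPM with oxy-Hb alone. All 3 C3a libraries were above all others, also replicate 2, and the log2 fold change was 0.35 ± 0.12 with all libraries (edgeR, adjusted p = 0.0966) and 0.39 ± 0.12 without replicate 2 (edgeR, adjusted p = 0.0373). The largest falls in that fit were those of Zfp579 (-1.05), Zfp219 (-0.70), Zfp865 (-0.69), Zfp503 (-0.66) and Zfp692 (-0.62). Zfp503 was high in replicate 2, with 8.05, 16.5 and 6.73 CPM with C3a, 9.27, 10.8 and 10.5 CPM with C3aRA, and 12.7, 12.5 and 9.69 CPM with oxy-Hb alone. Other libraries weighed as much. Without oxy-Hb replicate 1 or replicate 2 the count was 0, and without oxy-Hb replicate 3 it was 4. Without C3aRA replicate 1 or 3 it was 5, and without C3a replicate 1 it was 20. The shares of all genes in these fits are not given here, so the counts are not read as changes of the members.

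The lower level of the members as a whole rested largely on C3a replicate 2. Without it the median log2 fold change was -0.04, with 146 of 256 members below 0, and the median of all genes was -0.01. KRAB-like members had a median of -0.07 with all libraries and 0.02 without replicate 2, while members without a KRAB-like stretch had -0.16 and -0.15. Without replicate 2, 2 KRAB-like members rose and 2 fell, 1.45% each. Of the others 1 rose and 15 fell, 0.855% and 12.8%, beside 4% and 5.55% of all genes. With a correction for length and GC content as well, described below, 2 KRAB-like members rose and 2 fell, 1.45% each. Of the others 4 rose and 5 fell, 3.42% and 4.27%, beside 8.36% and 3.13% of all genes. The medians were then -0.01 for KRAB-like members and -0.02 for the others. Deviations on the log2 scale were taken from each gene's mean over the oxy-Hb libraries. In C3a replicate 2 the median deviation was -0.20 for KRAB-like members and -0.29 for the others, against -0.03 for all genes. In C3a replicates 1 and 3 it was -0.003 and 0.03 for KRAB-like members, and -0.10 and -0.17 for the others, which lay at -0.10 in C3aRA replicate 1 as well.

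**Figure D2:**
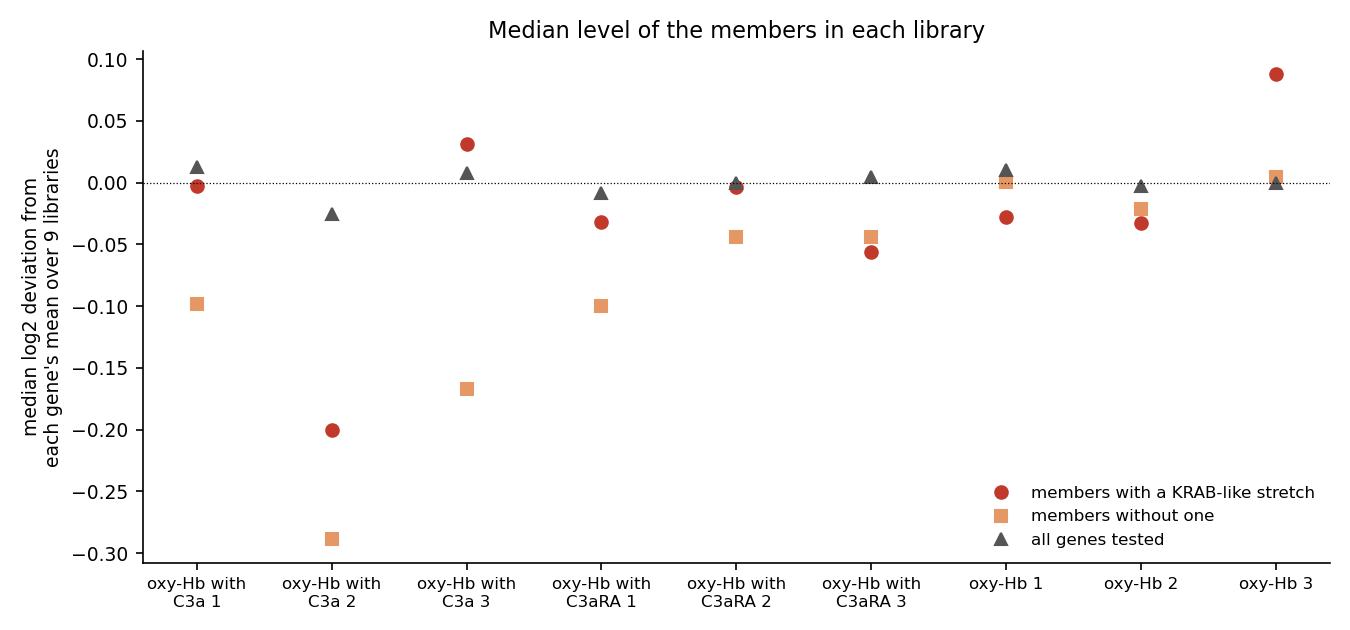
Median deviation of log2 CPM from each gene's mean over the oxy-Hb libraries, with a column for each library. It is shown for KRAB-like members, members without such a stretch and all tested genes. The axis label names the mean over 9 libraries, but the values are relative to oxy-Hb. C3a replicate 2 is lowest for both kinds of member, at -0.20 and -0.29. Members without a KRAB-like stretch lie at -0.10 and -0.17 in C3a replicates 1 and 3 and at -0.10 in C3aRA replicate 1.

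**Figure D3:**
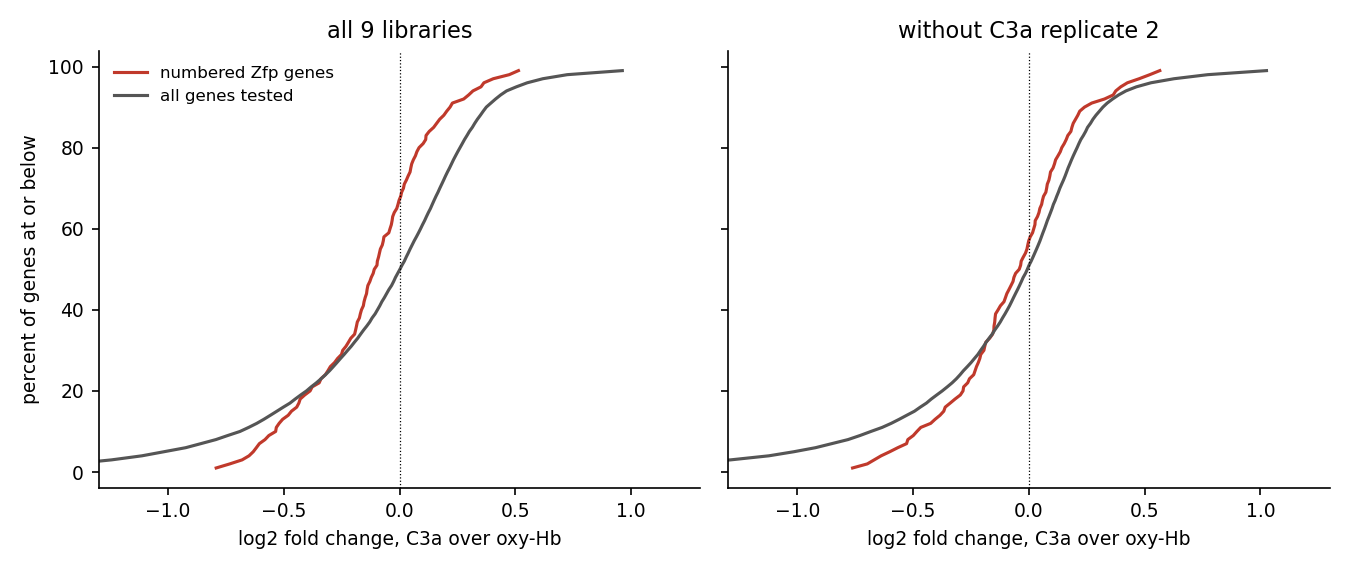
Percent of genes at or below each log2 fold change of C3a over oxy-Hb, from the 1st to the 99th percentile, for the 256 members and for all tested genes, with all 9 libraries (left) and without C3a replicate 2 (right). The members' curve is shifted to lower values on the left, with a median of -0.11, and lies close to that of all genes at its middle on the right, with a median of -0.04.

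GC content moved with these differences. Across the 256 members the log2 fold change of C3a over oxy-Hb had a correlation of -0.37 with transcript GC content, and across all genes of -0.13. Without replicate 2 these were -0.49 and -0.20. With transcript length the members' correlation was -0.24 with all libraries and -0.03 without replicate 2. The genes share the same libraries and are not independent, so these values are descriptions. With a correction of every library for length and GC content, 5 members rose (Zfp24, Zfp638, Zfp326, Zfp106 and Zfp944) and 4 fell (Zfp598, Zfp369, Zfp346 and Zfp692), beside 4.76% and 2.35% of all genes. The correction moved the median of all genes to 0.10 and that of the members to -0.02. Under it the log2 fold changes were closer to 0 for each of the 8 except Zfp369. Zfp865 stood at -0.47, Zfp516 at -0.30, Zfp408 at -0.40 and Zfp217 at -0.29, and none of these 4 kept its call (edgeR, adjusted p = 0.0705, 0.114, 0.0845 and 0.0728). Zfp598 stood at -0.42 and kept its call, but lost it when C3a replicate 2 was also left out, at -0.30 (edgeR, adjusted p = 0.0756). Zfp369 stood at -0.58, beside -0.54 without the correction. Whether composition accounts for the falls was not tested.

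**Figure D4:**
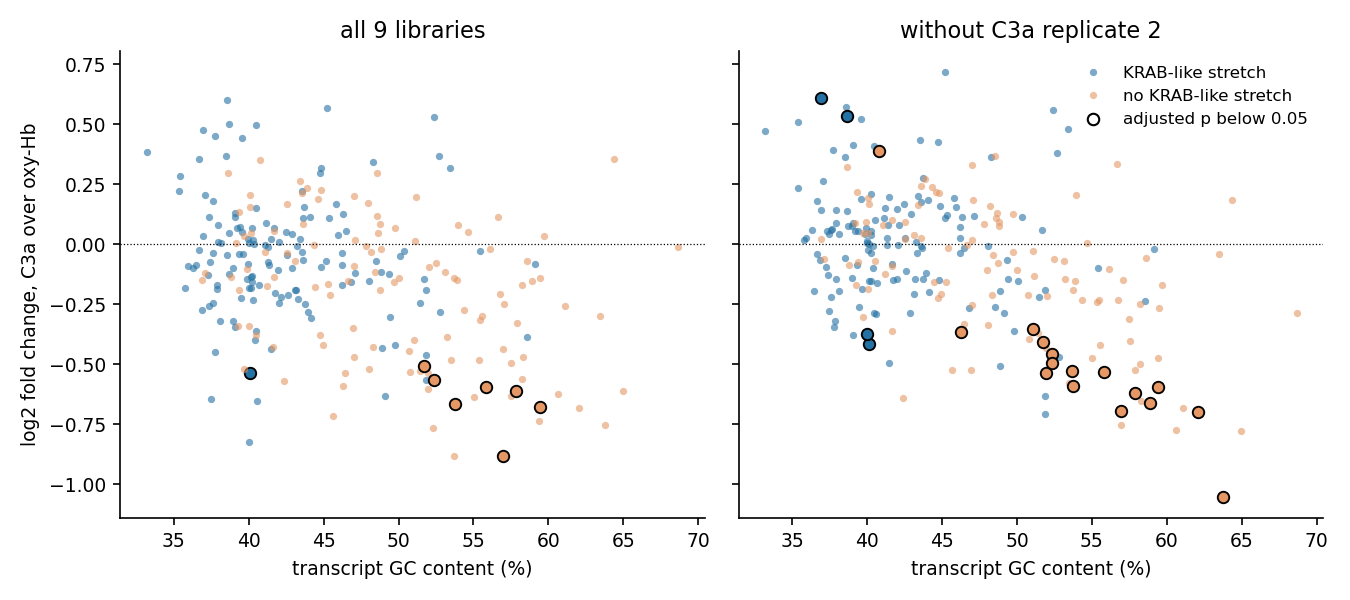
Log2 fold change of C3a over oxy-Hb against transcript GC content for members with and without a KRAB-like stretch, with all 9 libraries (left) and without C3a replicate 2 (right); outlined points have an adjusted p below 0.05. On the left the members that fell lie above 50% GC, except Zfp369 at 40.1%, and the correlations are -0.37 on the left and -0.49 on the right.

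C3aRA changed no member past the threshold with all libraries in the fit. Against oxy-Hb, 0 members and 0% of all tested genes were called by edgeR, 0 members by limma-voom and 0 by DESeq2, and 23 members had an unadjusted edgeR p below 0.05. The lowest adjusted p of any member was 0.467. The median log2 fold change was -0.04 over members and -0.01 over all genes. Without C3a replicate 2, which is in neither group but enters the shared estimate of the spread, 1 member rose and 6 fell, beside 1.88% and 1.38% of all genes. A fit of the C3aRA and oxy-Hb libraries alone called 9 members, of which 2 rose and 7 fell, beside 2.48% and 1.94% of the 13625 genes in that fit.

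The members with the lowest p were Zfp120, Zfp97 and Zfp39 among those higher with C3aRA. Zfp120 had 124, 117 and 105 CPM with C3aRA and 91.4, 86.1 and 93.0 CPM with oxy-Hb alone. Its groups did not overlap, and its log2 fold change was 0.35 ± 0.10 (edgeR, adjusted p = 0.479, and 0.0158 without C3a replicate 2). Zfp97 differed by 0.51 ± 0.16 and Zfp39 by 0.66 ± 0.23 on the log2 scale.

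Among those lower with C3aRA the lowest p were those of Zfp865, Zfp560 and Zfp207. Zfp207 had 177, 174 and 183 CPM with C3aRA and 225, 228 and 241 CPM with oxy-Hb alone. The C3aRA libraries were well below, with a log2 fold change of -0.38 ± 0.10 (edgeR, adjusted p = 0.476, and 0.0022 without C3a replicate 2). The KRAB-like Zfp560 had 1.89, 2.89 and 2.89 CPM with C3aRA and 4.90, 5.92 and 5.00 CPM with oxy-Hb alone. Its groups did not overlap either, and its log2 fold change was -1.03 ± 0.25 (edgeR, adjusted p = 0.467, and 0.0302 without C3a replicate 2). Without that library Zfp865 passed as well, as given above, and so did Zfp579, Zfp866 and Zfp626, with log2 fold changes of -0.85, -0.51 and -0.49 (edgeR, adjusted p = 0.0356, 0.0265 and 0.0499).

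C3a and C3aRA differed in 16 members, beside 8 for C3a and 0 for C3aRA against oxy-Hb. Of these 6 were higher with C3a (Zfp560, Zfp40, Zfp944, Zfp825, Zfp706 and Zfp207) and 10 lower (Zfp516, Zfp97, Zfp346, Zfp697, Zfp143, Zfp408, Zfp120, Zfp598, Zfp740 and Zfp217), beside 2.87% and 3.32% of all genes. The members' shares were 2.34% and 3.91%. Of the 6 that were higher, 4 are KRAB-like, and of the 10 that were lower, 2 are, namely Zfp97 and Zfp120.

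The lowest adjusted p among them was that of Zfp944 (ENSMUSG00000033972, chr17:22337989-22361400 on GRCm38), whose promoter and finger are printed above. It had 22.8, 22.5 and 26.3 CPM with C3a, 12, 12 and 13.8 CPM with C3aRA, and 15.9, 17.4 and 17.2 CPM with oxy-Hb alone. The ranges did not overlap, with oxy-Hb between the others, and the log2 fold change of C3a over C3aRA was 0.92 ± 0.14 (edgeR, adjusted p = 0.00556). It was called with each of the 9 libraries left out in turn. Of the words of Zfp944, 22.6% were shared with other genes, 15.9% with Zfp942. Zfp40, a KRAB-like gene of the same chromosome, had 11.7, 11.7 and 9.33 CPM with C3a, 4.87, 6.85 and 4.74 CPM with C3aRA, and 6.59, 8.19 and 9.08 CPM with oxy-Hb alone. Its C3a libraries were the 3 highest, and its log2 fold change was 0.99 ± 0.22 (edgeR, adjusted p = 0.0206). Zfp560 had 5.68, 5.72 and 5.20 CPM with C3a against the C3aRA values given above, a log2 fold change of 1.10 ± 0.25 (edgeR, adjusted p = 0.0252). Zfp825 averaged 15.0 ± 1.79 CPM with C3a and 8.76 ± 2.06 CPM with C3aRA (SD, n = 3 each), a log2 fold change of 0.77 ± 0.19 (edgeR, adjusted p = 0.0324), and 47.4% of its words were shared with other genes.

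The 2 higher members without a KRAB-like stretch were Zfp706 and Zfp207. Zfp706, a small protein that restrains Klf4 in mouse embryonic stem cells, had 112, 150 and 137 CPM with C3a, 88.2, 101 and 94.2 CPM with C3aRA, and 103, 110 and 119 CPM with oxy-Hb alone. The groups of C3a and C3aRA did not overlap, and the log2 fold change was 0.49 ± 0.12 (edgeR, adjusted p = 0.0299). Zfp207, the Bub3 partner, had 239.8, 223 and 259 CPM with C3a, close to its oxy-Hb values, and its log2 fold change over C3aRA was 0.43 ± 0.10 (edgeR, adjusted p = 0.0215).

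Among the 10 lower members, Zfp120 (ENSMUSG00000068134, chr2:150114406-150136708 on GRCm38) had 84.6, 77.0 and 79.0 CPM with C3a and the higher C3aRA values given above. The oxy-Hb libraries lay between, and the log2 fold change was -0.52 ± 0.10 (edgeR, adjusted p = 0.0142). Zfp143, an activator that binds many promoters, had 66.8, 42.3 and 55.8 CPM with C3a, 96.9, 83.8 and 78.9 CPM with C3aRA, and 77.2, 66.6 and 70.5 CPM with oxy-Hb alone. Its C3a and C3aRA groups did not overlap, its C3a and oxy-Hb groups did by a narrow margin, and its log2 fold change over C3aRA was -0.65 ± 0.15 (edgeR, adjusted p = 0.0239). Zfp97 had 11.4, 10.1 and 10.3 CPM with C3a, 18.4, 19.9 and 15.4 CPM with C3aRA, and 14.4, 11.6 and 11.8 CPM with oxy-Hb alone. Its C3a libraries were the 3 lowest, and its log2 fold change over C3aRA was -0.75 ± 0.16 (edgeR, adjusted p = 0.0206), on reads that Zfp960 could share.

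Zfp516, Zfp346, Zfp408, Zfp598 and Zfp217, lower with C3a than with oxy-Hb, were also lower than with C3aRA, by log2 fold changes from -0.76 for Zfp516 to -0.45 for Zfp217. The 2 comparisons share the C3a libraries, so they are not independent. Zfp740 averaged 54.2 ± 5.87 CPM with C3a and 75.6 ± 3.02 CPM with C3aRA (SD, n = 3 each), a log2 fold change of -0.48 ± 0.11 (edgeR, adjusted p = 0.0279). Zfp697 averaged 8.58 ± 1.55 CPM with C3a and 13.7 ± 1.73 CPM with C3aRA (SD, n = 3 each), a log2 fold change of -0.68 ± 0.18 (edgeR, adjusted p = 0.0437).

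**Figure D5:**
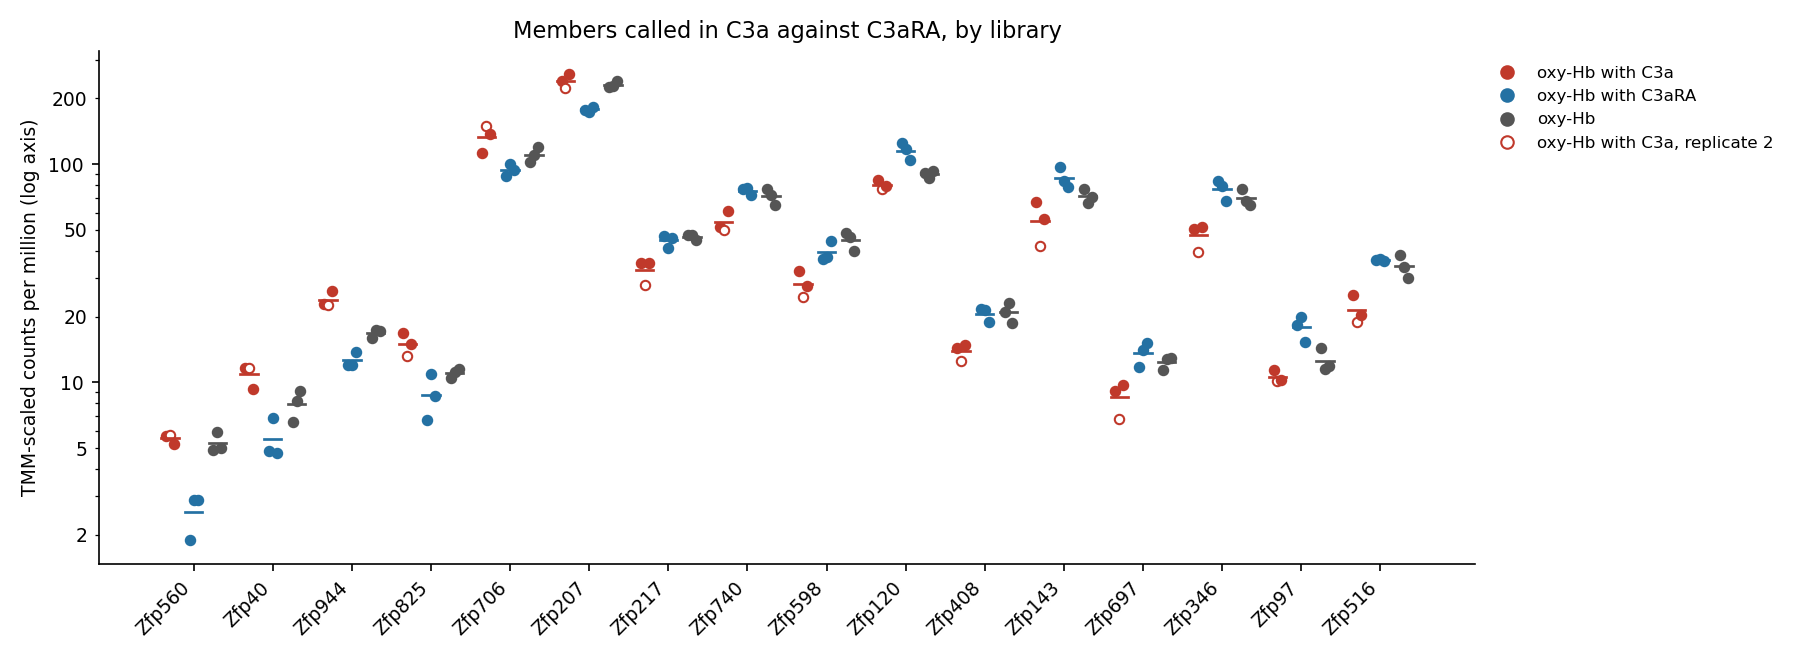
Level in each library of the 16 members that differed between C3a and C3aRA, in TMM-scaled CPM on a log axis, ordered by log2 fold change from highest to lowest; points are libraries, bars are group means of 3, and the open point is C3a replicate 2. Zfp944 stands at 22.5 to 26.3 with C3a and at 12 to 13.8 with C3aRA, with oxy-Hb between.

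Without C3a replicate 2, 15 members were higher and 15 lower, beside 5.97% and 6.54% of all genes, and 15 of the 16 calls were kept, with Zfp697 lost (edgeR, adjusted p = 0.052). The count fell to 8 without C3a replicate 3 and to 9 without oxy-Hb replicate 2. It fell to 1, 5 and 5 without C3aRA replicates 1, 2 and 3. For these fits, too, the shares of all genes are not given. With the correction for length and GC content 15 were higher and 11 lower, beside 5.02% and 3.27% of all genes, 14 of the 16 calls were kept, and Zfp217 and Zfp598 were lost (edgeR, adjusted p = 0.0788 and 0.0674). A fit of the 2 groups alone called 1 higher and 1 lower, beside 0.415% and 0.46% of the 13488 genes in it.

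Counted by values alone and with all libraries, 18 members lay above and 44 below without overlap in C3a against oxy-Hb, which is 7.03% and 17.2% of members beside 13.2% and 14.6% of all genes. In C3aRA against oxy-Hb 19 lay above and 33 below, 7.42% and 12.9% beside 11.9% and 11%. In C3a against C3aRA 26 lay above and 46 below, 10.2% and 18.0% beside 14.1% and 14.7%. With all libraries the share wholly higher was smaller among members than among all genes in each comparison, and the share wholly lower was larger. Without C3a replicate 2, a count added after the data were seen, 33 members lay above and 59 below oxy-Hb, 12.9% and 23.0% beside 20.2% and 19% of all genes. Against C3aRA 58 then lay above and 59 below, 22.7% and 23.0% beside 21.4% and 21.1%, so the smaller share of higher members was not seen there.

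Members with established roles mostly did not pass the test in any comparison. Of the imprint and retroelement silencers, Zfp445 had 208, 129.8 and 212 CPM with C3a, 212, 210.4 and 194 CPM with C3aRA, and 210.2, 202 and 232 CPM with oxy-Hb alone. Apart from the low replicate 2 the groups overlapped. Zfp809, which recognises the primer binding site of murine leukaemia virus, averaged 22.5 ± 6.07 CPM with C3a, 21.5 ± 0.724 CPM with C3aRA and 23.6 ± 1.12 CPM with oxy-Hb alone (SD, n = 3 each). Zfp568, which represses a placental promoter of Igf2, averaged 25.2 ± 8.08 CPM with C3a, 26.8 ± 1.37 CPM with C3aRA and 27.3 ± 2.03 CPM with oxy-Hb alone. The wide spread with C3a came from replicate 2, the lowest library for both.

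Of the chromatin partners, Zfp281, a regulator of embryonic stem cells, Zfp410, which drives Chd4, and Zfp644, which brings the G9a and GLP methyltransferases to DNA, differed between C3a and oxy-Hb by -0.07 ± 0.13, 0.23 ± 0.13 and 0.01 ± 0.13 on the log2 scale (SE, edgeR). Zfp592 and Zfp687, which occur in a complex with Zmynd8, differed by -0.53 ± 0.17 and -0.48 ± 0.21 (edgeR, adjusted p = 0.0807 and 0.178). Zfp335, part of a complex with histone methyltransferases, had 19.3, 8.43 and 14.6 CPM with C3a, 20.3, 22.7 and 27.7 CPM with C3aRA, and 24.2, 25.6 and 20.4 CPM with oxy-Hb alone. It was lower in every C3a library than in every other, most so in replicate 2, and the difference from oxy-Hb of -0.74 ± 0.24 did not pass (edgeR, adjusted p = 0.0917).

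Of the members that act on RNA, Zfp106 had 608, 407 and 618 CPM with C3a, 547, 549.6 and 572 CPM with C3aRA, and 553, 530.0 and 530.2 CPM with oxy-Hb alone. C3a replicates 1 and 3 were the 2 highest libraries and replicate 2 the lowest, so the mean hid opposite positions. Zfp318, which acts on IgD transcripts in B cells, differed by -0.42 ± 0.17, Zfp326, part of a complex that links RNA polymerase II to splicing, by 0.30 ± 0.13, and Zfp622, a factor of 60S ribosome maturation, by 0.08 ± 0.11 on the log2 scale between C3a and oxy-Hb. None of the 3 passed the test without the length and GC correction (edgeR, adjusted p = 0.165, 0.169 and 0.664). With the correction Zfp326 was called, as given above. Zfp292 had 122, 51.1 and 124 CPM with C3a, 154, 135 and 124 CPM with C3aRA, and 139, 110 and 137 CPM with oxy-Hb alone, again with replicate 2 far below the rest. The remaining members of the role list, Zfp91, Zfp148, Zfp384, Zfp451, Zfp462, Zfp638, Zfp703, Zfp746 and Zfp830, differed between C3a and oxy-Hb by -0.62 (Zfp703) to 0.12 (Zfp830) on the log2 scale. None of them passed the test in any comparison in the fit of all libraries without the length and GC correction. The lowest adjusted p for C3a against oxy-Hb in that fit was 0.133, for Zfp462 (edgeR). With the correction Zfp638 was called against oxy-Hb, as given above, and in C3a against C3aRA too.

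KAP1 and other genes of silenced chromatin, here called partners, were listed beside the members. Of 35 measured partner genes 0 rose and 3 fell with C3a against oxy-Hb, namely Wiz, Chd3 and Mta1, which is 8.57% of the list beside 3.04% of all genes. The same 3 fell without C3a replicate 2, beside 5.55% of all genes. The median log2 fold change of the list turned with the processing, from -0.14 with all libraries and -0.05 without C3a replicate 2 to 0.04 with the length and GC correction, where 0 rose and 2 fell, and 0.09 with both, where 4 rose and 2 fell. Wiz, a zinc finger partner of G9a and GLP, averaged 12.6 ± 3.60 CPM with C3a and 27.1 ± 2.83 CPM with oxy-Hb alone (SD, n = 3 each), a log2 fold change of -1.10 ± 0.18 (edgeR, adjusted p = 0.00586). Trim28 itself averaged 93.5 ± 2.95 CPM with C3a, 100.4 ± 7.16 CPM with C3aRA and 98.2 ± 14.5 CPM with oxy-Hb alone, and Setdb1 averaged 112 ± 19.6 CPM with C3a, 122 ± 1.72 CPM with C3aRA and 128 ± 6.75 CPM with oxy-Hb alone (SD, n = 3 each). Neither passed the test (edgeR, adjusted p = 0.744 and 0.35 for C3a against oxy-Hb). In C3a against C3aRA 1 partner was higher, Hdac1, and 3 were lower, Wiz, Mta1 and Trim24, which is 2.86% and 8.57% of the list beside 2.87% and 3.32% of all genes. Without C3a replicate 2 the counts were 5 and 5, each 14.3% beside 5.97% and 6.54%. In C3aRA against oxy-Hb 0 partners were called with all libraries by edgeR, with 2 at an unadjusted p below 0.05. Without C3a replicate 2, 2 fell, Gatad2a and Fam208a (edgeR, adjusted p = 0.0331 and 0.0287), 5.71% beside 1.38% of all genes.

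Other zinc finger genes were counted in the same way in C3a against oxy-Hb. Of 30 Zbtb genes 0 rose and 3 fell, 10.0% beside 3.04% of all genes, with a median log2 fold change of -0.19. Without C3a replicate 2, 7 Zbtb genes fell, 23.3% beside 5.55%, with a median of -0.15. Of 14 Zscan and Zkscan genes 1 fell, 7.14%, and 2 without C3a replicate 2, 14.3%, with medians of -0.14 and -0.08. Of 8 Klf genes 0 were called by edgeR, with 4 at an unadjusted p below 0.05 and a median of -0.16, and 1 fell without C3a replicate 2, with a median of -0.10. Of 21 Zfp genes with letters in the symbol 0 were called by edgeR, with 3 at an unadjusted p below 0.05 and a median of -0.22, and 1 rose and 1 fell without C3a replicate 2, with a median of -0.04. The groups are small, and the differences between them and the members were not tested.

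The authors' deposited table for C3a listed 7 members with an adjusted p below 0.05, all lower, among 508 of 22935 genes (2.21%), and 6 of them are among the 8 above. The one not among them, Zfp609, had 63.3, 28.0 and 52.7 CPM with C3a, 92.2, 79.0 and 77.8 CPM with C3aRA, and 85.8, 81.6 and 77.2 CPM with oxy-Hb alone. All C3a libraries were below the rest, and replicate 2 was far the lowest. The authors' deposited table for C3aRA listed 9 members, 3 higher and 6 lower, among 715 genes (3.12%), where the fit of all 9 libraries called 0. The shares of 2.21% and 3.12% are over every listed row, also those with too few counts for the tests here. They are thus unlike the shares of the 14146 tested genes given above.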

How the data were processed

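RNA sequencing counts of 9 libraries of BV2 cells were analysed, 3 per group, grouped by the labels' treatments. The authors deposited tables with raw read counts per Ensembl gene, beside their own log2 fold changes, p-values and adjusted values for each addition against oxy-Hb. Libraries came from total RNA with a SMARTER mRNA-seq kit, per the labels' protocols. Per the submitters' processing notes, the builds were GRCm38 and mm10. For the aligner, the counter and its strand setting, the value is not given in the sources used here, and a read over 2 genes, also on opposite strands, cannot be assigned. Both tables held the same oxy-Hb counts (0 differences).

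Counts were tested with edgeR 4.0.16 in R 4.3.3: filterByExpr (minimum count 10), TMM scaling, 1 coefficient per group and robust quasi-likelihood F tests, with calls at a Benjamini-Hochberg adjusted p below 0.05. The biological coefficient of variation was 15.8%. Errors of levels are SDs and errors of log2 fold changes SEs. In a simulation of C3a against oxy-Hb with 200 altered genes, the test found 42% of those altered 1.5 fold, 68% at 2 fold, 88% at 3 fold and 86% at 4 fold, and made 5 false calls in 13821 genes. No simulated library was set apart as C3a replicate 2 was, so these values may not hold for the real libraries. Replicates differed by more than sampling noise, with a chi-square per gene of 5.26 to 10.0, or 57.6 and 64.0 for pairs with C3a replicate 2. Alternatives used other scalings, DESeq2 1.42.0, limma 3.58.1 (voom), no filter, fits of 2 groups, a replicate block, splines for transcript length and GC content, and each library left out.

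Members, lists and motifs were chosen with earlier results of these data known. Named were called members (at most 10 per direction, or 5 without C3a replicate 2), the 8 highest by level, the 5 highest and lowest per length, a role list, 3 on each side of the count sum and, where nothing was called, the lowest p; Zfp609 was named after its values were seen. Fingers and KRAB-like stretches came from translated GENCODE M21 coding sequences instead of the protein table planned, and shared 31-base words replaced protein identity.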

Additional observations from a re-analysis of the deposited data

How the results depend on the processing

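In C3a against oxy-Hb, 8 members were called. Other settings gave 14 (no count filter), 0 (2 groups alone), 17 (2 groups alone without C3a replicate 2, chosen after seeing the data), 13 (length and GC correction without C3a replicate 2) and 20 (DESeq2), and 0 to 20 with 1 library left out. In C3aRA against oxy-Hb, 0 became 9 (2 groups alone) and 13 (length and GC correction without C3a replicate 2), and 0 to 7 with 1 library left out. In C3a against C3aRA, 16 became 26 (length and GC correction), 2 (2 groups alone), 30 (2 groups alone without C3a replicate 2), 33 (length and GC correction without it) and 25 (DESeq2), and 1 to 30 with 1 library left out. With the correction and without C3a replicate 2, the called shares of members were 5.08%, 5.08% and 12.9% in these comparisons, in that order. All genes then stood at 11.5%, 7.64% and 13.5%. For most other settings listed here the share of all genes is not given, so the counts are not read as changes of the members. The other scalings and limma-voom moved no count by over 1.5 times. A replicate block gave 11, 0 and 20 calls; same-numbered libraries had correlations of -0.04 to 0.17, so the numbers were not taken to pair samples. Single genes called kept their direction under every alternative: 115 values stayed past the threshold and 45 did not in C3a against oxy-Hb, and 235 and 85 in C3a against C3aRA; the cause was not tested. A sum of 900 counts would keep 212 members. The count of 3 libraries per group limits the precision, and intervals cover these libraries only.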
